A study of Mus musculus with 6 samples.

Results

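The genes described here are 33 that astrocytes of the healthy brain use for their everyday work, taken from the 29458 genes with a transcript cluster (the probe group of a gene) of their own on the array. They were chosen by name, through the gene symbols that the authors gave for each cluster. For 32 of them there was a cluster of their own, and Glul, whose cluster also carries Mir8114, is described only as a shared cluster. Ribosome-bound mRNA of CD11brGFP transgenic mice aged 2 to 3 months was measured on 6 MoGene-2_0-st arrays. Sham operated animals gave the 3 control arrays, and animals at 24 h after tMCAO, a transient occlusion of the middle cerebral artery, gave the 3 stroke arrays. Both groups carried the same transgene, Flag/EGFP-RPL10a, a tagged protein of the ribosome that the CD11b promoter drives in myeloid cells such as microglia. TRAP (translating ribosome affinity purification) pulled down the tagged ribosomes with their mRNA. Per the labels, a group had 6 mice and 3 biological replicates. Which mice went into which array is not stated, and the sex of the animals is given in conflicting ways, as males alone and as a balanced mix.

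Astrocytes clear glutamate and potassium released by neurons, move water and bicarbonate at vessels and ventricles, and share metabolites with one another through gap junctions. Glutamate taken up by their transporters is turned into glutamine by glutamine synthetase (Glul) and handed back to neurons. After injury astrocytes become reactive, a state known for strong induction of Gfap, Vim, Serpina3n and Lcn2. The genes below belong instead to the resting programme, sorted into transporters and channels, junction and adhesion proteins, metabolic enzymes, receptors and signalling genes, transcription regulators, and secreted or small binding proteins.

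Some facts of the series bear on every value. Array medians lay between 5.23 and 5.35 (log2 signal), and arrays correlated with each other across genes at r from 0.980 to 0.994. On the first principal component, with 45.1% of the variance, array 2 of each group lay far from the remaining 4 arrays. The astrocyte genes were read in RNA taken from a tag in myeloid cells. Whether their signal came from tagged cells was not tested, no unpurified RNA was compared, and in RNA of many cells fewer cells of a type and less RNA per cell cannot be told apart. Itgam, the gene of CD11b, was at 5.72, 6.47 and 6.32 in the controls and 6.96, 7.09 and 6.98 in stroke (adjusted p = 0.276). The microglial receptor gene P2ry12 was at 8.02, 8.38 and 8.01 in the controls and 7.77, 7.79 and 7.65 in stroke (adjusted p = 0.757), and was 1 of only 2 homeostatic microglia markers with a lower stroke mean. The other 10 of these 12 markers had a higher one, up to 0.997 for Fcrls (adjusted p = 0.0667), and the median of the list was 0.25. Rpl10a was at 10.34 ± 0.15 and 10.42 ± 0.06 in the groups (log2 signal, SD, n = 3).

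None of the 32 resting astrocyte genes passed the threshold of an adjusted p under 0.05 in the comparison of stroke with control, in either direction (limma, adjusted over all 29458 genes). Over all genes, 0.421% passed as higher and 0.00339% as lower, so that 0 of 32 is close to the background share. At an unadjusted p under 0.05, 7 of the 32 were higher in stroke and 0 were lower, that is 21.9% higher against 3.69% of all genes, where 2.07% were lower. With the replicate number as a block these were 12 higher (37.5%, against 6.15% of all genes and 8.05% of the brighter genes defined below) and 0 lower (4.97% of all genes). In that blocked fit again 0 of the 32 passed after adjustment, beside 0.519% of all genes as higher and 0.0102% as lower, and the lowest adjusted p was 0.102. The median difference of the 32 genes was 0.21 on the log2 scale, beside -0.01 over all genes. The stroke mean was above the control mean for 26 genes (81.2%, against 47.2% of all genes) and below it for 6. This lean was not particular to the list. It was also seen in 41 of 52 further astrocyte genes (78.8%) and 10 of 12 homeostatic microglia markers (83.3%), lists described below. The same lean was seen in 6 of 6 myeloid, 7 of 7 monocyte and 7 of 8 neutrophil markers. Of 12 neuron markers 6 had a higher stroke mean, and of 12 oligodendrocyte lineage markers 7 had. Among endothelial and mural markers 6 of 10 had a higher stroke mean, and among ependymal markers 4 of 6 had. All 32 genes were among the brighter genes, those at or above the median of mean signal. Of the brighter genes 4.98% were higher and 1.32% lower at an unadjusted p under 0.05, and 53.0% had a higher stroke mean.

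In 8 of the 32 genes all 3 stroke arrays lay above all 3 control arrays, and in 1 they lay below. This was 25% and 3.12% of the list, beside 6.34% and 4.89% of all genes and 8.54% and 4.15% of the brighter genes. The 8 genes were Slc1a3, Aqp4, Hepacam, Mlc1, Aldh1l1, Cbs, Sox9 and Htra1, and the gene below was Cldn10. Differences among the 32 genes ran from -0.24 for Slco1c1 to 0.60 for Slc1a3. The 95% interval of the difference, taken for each gene on its own, had a median half-width of 0.39. It lay within a 2-fold change in either direction for 31 of the 32 genes, all but Mt3. The same held for 27799 of all 29458 genes and 13884 of the 14729 brighter genes, so this count was near the background. The arrays thus set a bound on a change of most genes, these among them, without showing that their levels were the same.

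**Figure D1:**
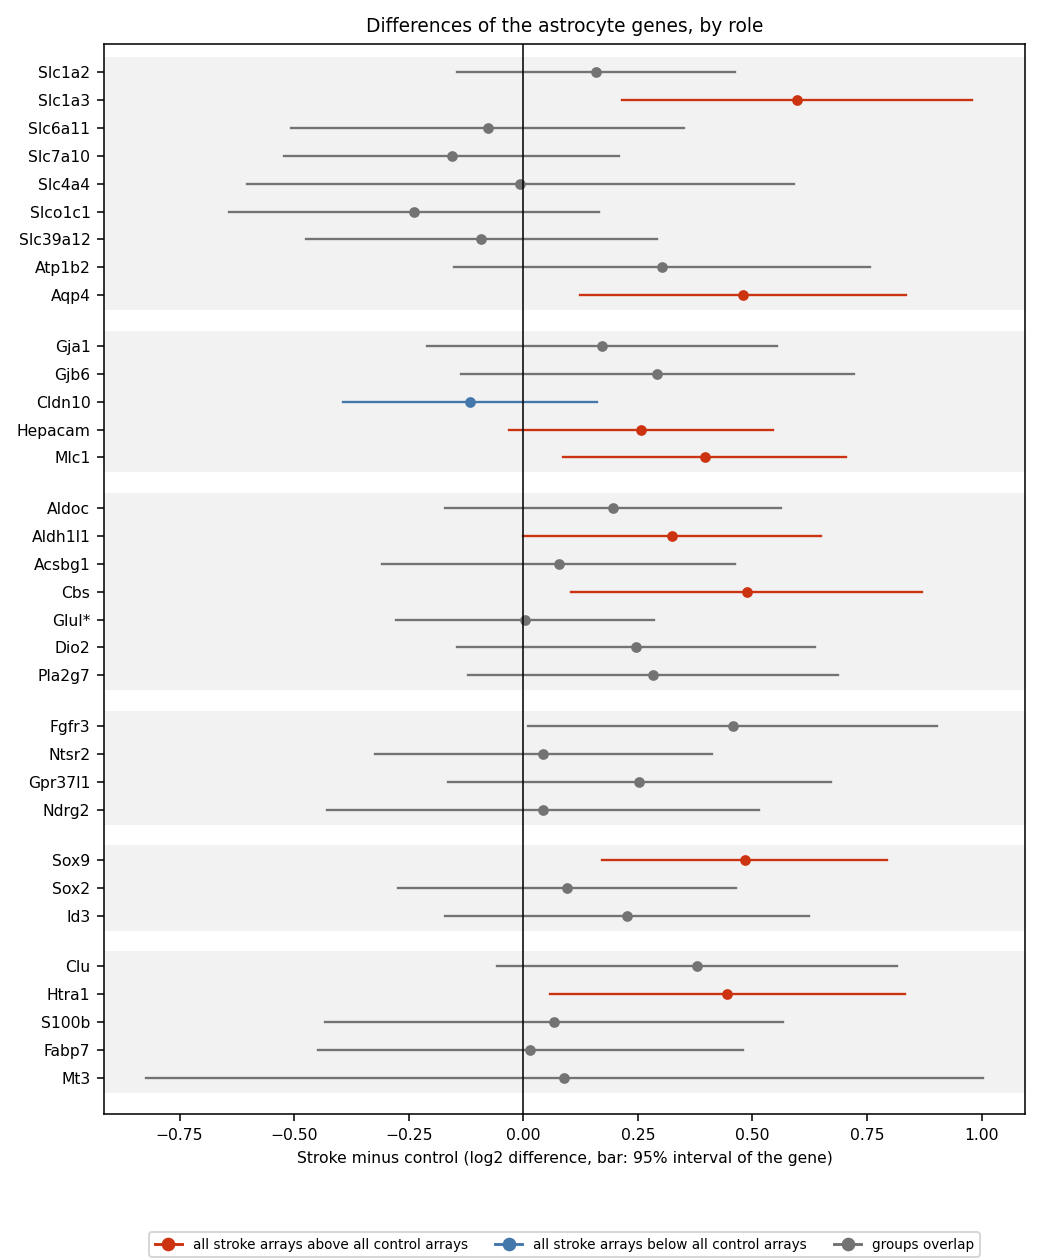
Stroke minus control for the 33 genes (log2 difference) with the 95% interval of each gene as a bar, in shaded blocks in the order transporters and channels, junctions and adhesion, enzymes, receptors and signalling, transcription regulators, and secreted or binding proteins. Red marks the 8 genes whose stroke arrays all lay above the controls, led by Slc1a3 at 0.60, and blue marks Cldn10, whose stroke arrays all lay below; Glul (asterisk) is a shared cluster.

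Transporters and channels were the group with the most varied values, 4 of 9 higher and 5 lower by their means, with a median difference of -0.0062. None of the 9 passed. Slc1a3, which encodes the glutamate transporter GLAST, was at 8.65, 8.94 and 9.06 in the controls and at 9.26, 9.58 and 9.60 in stroke. Every stroke array lay above every control array, and each was above the control of the same number. The difference was 0.60 (1.51-fold, 95% interval 0.22 to 0.98), with an unadjusted p of 0.00681 and an adjusted p of 0.407, or 0.102 with the replicate block. Slc1a3 lies on chromosome 15 of GRCm38 (mm10), from 8634124 to 8710807.

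The other main glutamate transporter, Slc1a2 (GLT-1), was at 8.58, 8.48 and 8.69 in the controls and at 8.65, 8.82 and 8.74 in stroke. The groups overlapped and the difference of 0.16 had an interval from -0.15 to 0.46 (adjusted p = 0.9998). The intervals of Slc1a3 and Slc1a2 overlapped, and the difference between these transporters was not tested. Aqp4, the water channel of astrocyte endfeet at vessels, was at 8.25, 8.04 and 8.49 in the controls. In stroke it was at 8.66, 8.72 and 8.84, above every control array, a difference of 0.48 (interval 0.12 to 0.84, adjusted p = 0.576).

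Atp1b2, a beta subunit of the sodium pump, was 11.52, 11.22 and 11.74 in the controls and 11.85, 11.48 and 12.05 in stroke. The groups overlapped, the arrays numbered 2 being the lowest of each, while each stroke array lay above the control of its number. Its difference was 0.30 (interval -0.15 to 0.76), with an unadjusted p of 0.164, or 0.0248 with the replicate block (blocked adjusted p = 0.370). Slc4a4, the sodium bicarbonate cotransporter, showed the same low arrays numbered 2, at 9.15 in control and 9.07 in stroke against 9.68 to 9.91 on the other 4 arrays. Its group means differed by -0.0062 (interval -0.60 to 0.59).

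The transporters of GABA (Slc6a11), small neutral amino acids (Slc7a10), thyroid hormone (Slco1c1) and zinc (Slc39a12) had lower stroke means, with differences of -0.08, -0.16, -0.24 and -0.09. All 4 overlapped between groups, and their adjusted p values were 0.9998. Slco1c1, which brain endothelium also expresses, was at 7.21, 6.99 and 7.44 in the controls and 7.20, 6.98 and 6.75 in stroke. It was the only 1 of these 4 to be lower in every same-numbered pair, by very little in numbers 1 and 2, and its interval ran from -0.64 to 0.17.

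**Figure D2:**
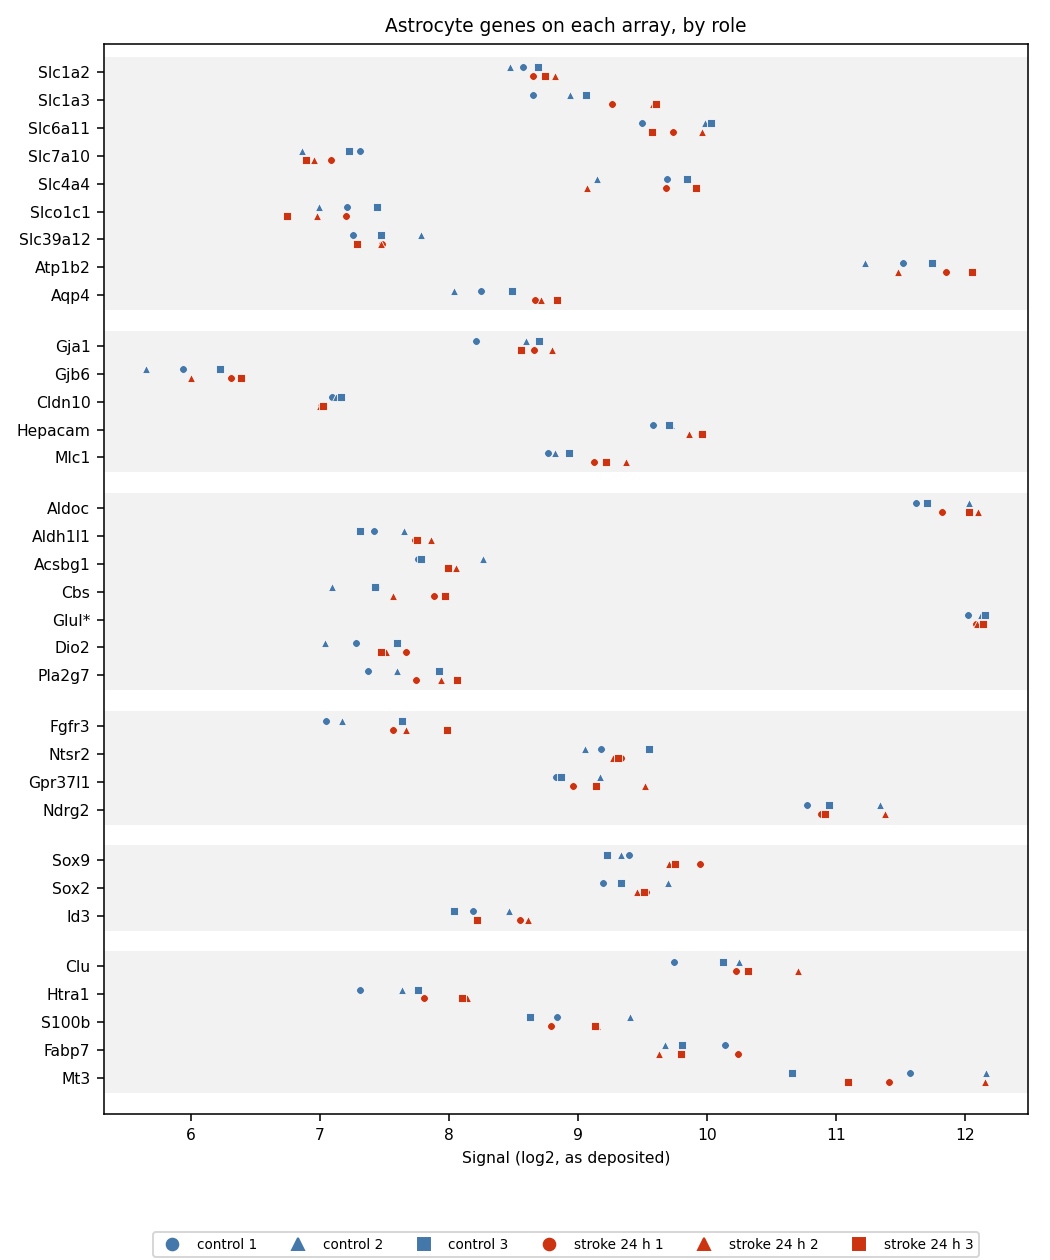
Log2 signal of each of the 33 genes on each of the 6 arrays, controls in blue and stroke in red, with the symbol giving the array number and shaded blocks for the same gene groups. Slc1a3 separates the groups (8.65 to 9.06 against 9.26 to 9.60), while in Slc4a4 and Mt3 the arrays numbered 2 of both groups sit together, away from the other 4; signals of different genes come from different probes and cannot be ordered.

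Among 5 junction and adhesion genes none passed, 4 had a higher stroke mean and the median difference was 0.26. Hepacam and Mlc1 encode partner proteins of astrocyte membranes, whose loss in humans causes a leukoencephalopathy with cysts. Mlc1 was at 8.77, 8.82 and 8.93 in the controls and 9.12, 9.37 and 9.21 in stroke, a difference of 0.40 (1.32-fold, interval 0.09 to 0.70, adjusted p = 0.633). Hepacam was at 9.58, 9.72 and 9.71 in the controls and 9.95, 9.86 and 9.96 in stroke, a difference of 0.26 (interval -0.03 to 0.55, adjusted p = 0.942). For both genes the groups did not overlap.

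The gap junction connexin genes Gja1 and Gjb6 overlapped between groups. Gja1 was at 8.21, 8.599 and 8.69 in the controls and 8.66, 8.80 and 8.56 in stroke (difference 0.17, interval -0.21 to 0.55). The lowest value was that of control array 1, without which the difference was 0.026, and the other controls lay within the range of the stroke arrays. Gjb6 was at 5.94, 5.65 and 6.23 in the controls and 6.31, 6.00 and 6.39 in stroke (difference 0.29, interval -0.14 to 0.72). It was higher in 3 of 3 same-numbered pairs. Its unadjusted p was 0.0349 with the replicate block (blocked adjusted p = 0.403) against 0.155 without it. Cldn10, a claudin of tight junctions, was at 7.10, 7.12 and 7.17 in the controls and 7.01, 7.001 and 7.03 in stroke. All stroke arrays were lower, with a difference of only -0.12 (interval -0.39 to 0.16, adjusted p = 0.9998).

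Of 6 metabolic enzymes with a cluster of their own none passed, all 6 had a higher stroke mean, and the median difference was 0.26. Cbs, the cystathionine beta-synthase that draws homocysteine into cysteine synthesis, was at 7.43, 7.10 and 7.43 in the controls. It was at 7.89, 7.57 and 7.97 in stroke, above all controls, a difference of 0.49 (1.40-fold, interval 0.10 to 0.87, adjusted p = 0.637). Aldh1l1, a folate enzyme used to mark astrocytes throughout the brain, was at 7.42, 7.65 and 7.31 in the controls and 7.74, 7.86 and 7.75 in stroke. The groups did not overlap, with a difference of 0.32 (unadjusted p = 0.05001, adjusted p = 0.868), so this gene stood just outside the 7 counted above. With the replicate block its unadjusted p was 0.0237 (blocked adjusted p = 0.365), and it was among the 12 counted there.

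Aldoc, the aldolase of astrocyte glycolysis, was at 11.62, 12.03 and 11.70 in the controls and 11.82, 12.10 and 12.03 in stroke (difference 0.20, interval -0.17 to 0.56). The arrays numbered 2 were the highest of each group. Pla2g7, which breaks down platelet-activating factor, differed by 0.28 (interval -0.12 to 0.69). Its unadjusted p was 0.145, or 0.0404 with the replicate block (blocked adjusted p = 0.424). Dio2, the deiodinase that activates thyroid hormone, differed by 0.24 (interval -0.15 to 0.64). Acsbg1, an acyl-CoA synthetase, differed by 0.08, with control array 2 at 8.27 above all other arrays. The cluster shared by Glul and Mir8114 was at 12.02, 12.12 and 12.15 in the controls and 12.08, 12.09 and 12.14 in stroke. Its difference of 0.0038 had an interval from -0.28 to 0.28 (adjusted p = 0.9998 among the 31873 clusters that carry any symbol, of which 0.355% passed as higher and 0.00314% as lower).

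Receptors and signalling genes gave 4 higher stroke means of 4 and none that passed, with a median difference of 0.15. Fgfr3, a receptor of fibroblast growth factors, was at 7.05, 7.17 and 7.63 in the controls and 7.57, 7.67 and 7.99 in stroke. Control array 3 overlapped the stroke arrays, while all 3 same-numbered pairs were higher in stroke. The difference was 0.46 (interval 0.01 to 0.90, adjusted p = 0.858), and its unadjusted p of 0.0461 was 0.00498 with the replicate block (blocked adjusted p = 0.212). Gpr37l1, an orphan receptor related to the endothelin receptors, differed by 0.25 (interval -0.17 to 0.67). The neurotensin receptor gene Ntsr2 and Ndrg2, a gene that marks mature astrocytes, each differed by 0.04.

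Among 3 transcription regulators none passed and the median difference was 0.23. Sox9, which specifies astrocytes during development and stays on in them, was at 9.40, 9.33 and 9.23 in the controls and 9.95, 9.70 and 9.75 in stroke. The groups did not overlap, and the difference was 0.48 (1.40-fold, interval 0.17 to 0.79, adjusted p = 0.412). Sox9 lies on chromosome 11 of GRCm38, from 112782210 to 112787757. Sox2, a related factor of neural stem cells and glia, was at 9.19, 9.70 and 9.33 in the controls and 9.53, 9.46 and 9.51 in stroke (difference 0.09, interval -0.27 to 0.46). Id3, an inhibitor of bHLH factors that endothelial cells express too, differed by 0.23 (interval -0.17 to 0.62).

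Of 5 secreted and small binding proteins none passed, all 5 stroke means were higher and the median difference was 0.09. Htra1, a secreted serine protease, was at 7.32, 7.64 and 7.76 in the controls and 7.81, 8.14 and 8.10 in stroke. The lowest stroke array was just above the highest control, and the difference was 0.44 (interval 0.06 to 0.83, adjusted p = 0.764). Clusterin (Clu), a secreted chaperone, was at 9.75, 10.25 and 10.12 in the controls and 10.22, 10.70 and 10.32 in stroke. Its groups overlapped by a narrow margin, with each pair higher in stroke and a difference of 0.38 (interval -0.06 to 0.81, adjusted p = 0.956). The unadjusted p was 0.0804, or 0.0152 with the replicate block (blocked adjusted p = 0.322). Fabp7, a fatty acid binding protein of radial glia and astrocytes, differed by 0.02 and S100b, a calcium-binding protein that oligodendrocytes also express, by 0.07.

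Mt3, a metallothionein of brain that binds zinc, had the widest spread. It was at 11.57, 12.16 and 10.66 in the controls and 11.41, 12.15 and 11.09 in stroke. The arrays had the same order in both groups, array 2 highest and array 3 lowest, while the group means differed by 0.09 (interval -0.82 to 1.003). In 9 of the 32 genes the arrays numbered 2 lay together outside the other 4, above them in 6 (Mt3, Ndrg2, S100b, Gpr37l1, Acsbg1 and Aldoc) and below them in 3 (Slc4a4, Atp1b2 and Fabp7). These were 18.8% and 9.38% of the list, beside 20.1% and 16.2% of all genes and 18.3% and 28.1% of the brighter genes. The mean of the arrays numbered 2 was 0.97 above that of the other 4 for Mt3, 0.49 above for Ndrg2, and differed by -0.67 for Slc4a4.

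**Figure D3:**
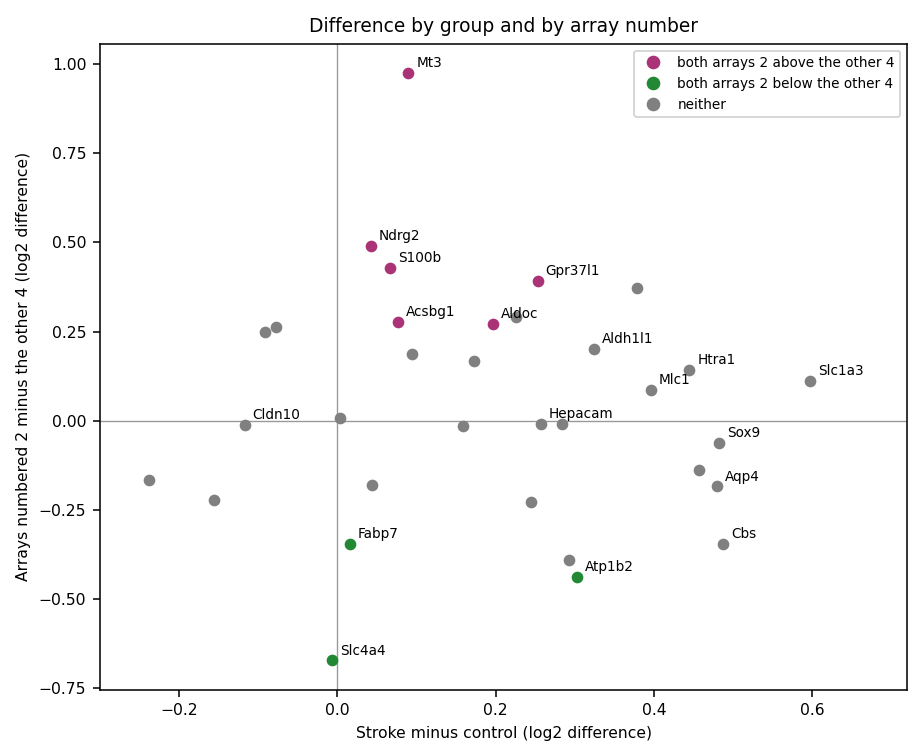
For each of the 33 genes, stroke minus control (horizontal, log2 difference) and the arrays numbered 2 minus the other 4 arrays (vertical, log2 difference), with names for genes that separate either way. In size, the difference by array number was the larger one for Mt3 (0.09 and 0.97) and Slc4a4 (-0.0062 and -0.67). For Slc1a3 (0.60 and 0.11) and Sox9 (0.48 and -0.06) that by group was larger. None of these genes passed the threshold between groups, and the differences by group and by array number were not compared by a test.

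Comparing arrays of the same number, 17 of the 32 genes were higher in stroke in all 3 pairs (53.1%, against 16.8% of all genes and 23.0% of the brighter genes). This share was 34.6% in the further astrocyte genes and 50% in the homeostatic microglia markers. In the oligodendrocyte lineage, neuron and myeloid markers it was 41.7%, 8.33% and 100%. Only 2 of the 32 were lower in all 3, a smaller share than the 17.6% of all genes and the 2558 of 14729 brighter genes. The mean over the 32 genes was 8.65, 8.76 and 8.78 in the controls and 8.90, 8.95 and 8.92 in stroke, so the groups lay apart by little. Other cell type markers were read on the same arrays as list means. That of 12 neuron markers lay between 11.02 and 11.16 in the controls and between 11.01 and 11.15 in stroke. That of 12 oligodendrocyte lineage markers lay between 9.56 and 9.70 in the controls and 9.63 and 9.87 in stroke. That of 12 homeostatic microglia markers lay between 6.78 and 7.16 and between 7.17 and 7.38, and that of 6 myeloid markers with Itgam between 6.12 and 6.23 in the controls and 7.01 and 7.31 in stroke. Of the 6 myeloid markers 2 passed as higher (33.3%, beside 0.421% of all genes). Of 7 monocyte markers 1 did (14.3%), Cd44, which is also among the reactive astrocyte genes below. Of the neuron, oligodendrocyte and homeostatic microglia markers 0 passed in either direction. Of 8 neutrophil markers 0 passed. With the replicate block 2 did as higher (beside 0.519% of all genes), the calprotectin genes S100a8 (1.24, blocked adjusted p = 0.0165) and S100a9 (1.10, blocked adjusted p = 0.0432). The part of these cell types in the values of the astrocyte genes was not tested.

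The resting genes were set beside reactive astrocyte genes and further astrocyte-enriched genes. The lists were chosen with earlier results of these data known, so their counts and medians are description only. Which cells the signal of the reactive genes came from was not tested. Of 23 reactive genes 13 rose (56.5%), 0 fell and 10 did not pass, with a median difference of 1.32, beside 0.421% of all genes that passed as higher. Among the 13 was Cd44 (adjusted p = 0.0127), which is also in the list of monocyte markers. With the replicate block 15 of the 23 reactive genes rose. Leaving out single arrays left 7 to 10, the fewest without stroke array 1 or 3, and a test without moderation left 0. Serpina3n, a protease inhibitor, rose by 3.29 on the log2 scale (adjusted p = 0.00509), Timp1, a metalloproteinase inhibitor, by 3.19, the transglutaminase Tgm1 by 2.90 and the lipocalin Lcn2 by 2.82. The cluster that Gfap shares with Gm39395 was at 9.37, 8.94 and 9.60 in the controls and 11.22, 10.93 and 11.24 in stroke (adjusted p = 0.0139). It lost its call without control array 1 (adjusted p = 0.0952), stroke array 1 (0.0799) or stroke array 3 (0.0839), with differences of 1.86, 1.78 and 1.77 beside 1.82 with all arrays. The reactive genes ran from 0.20 to 3.29, so the largest resting difference, 0.60 for Slc1a3, lay below the reactive median. Whether the lists differ was not tested.

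Of 52 further astrocyte genes 1 rose (1.92%, beside 0.421% of all genes), 0 fell (0.00339% of all genes) and 51 did not pass. Their median difference was 0.09, and the stroke mean was higher for 41 (78.8%) and lower for 11. At an unadjusted limma p under 0.05, 7 were higher (13.5%) and 2 lower (3.85%), or 9 and 2 with the replicate block. The gene that rose was Slc14a1, a urea transporter. It was at 6.42, 6.40 and 6.68 in the controls and 7.39, 7.79 and 7.57 in stroke, well apart, a rise of 1.09 (2.12-fold, interval 0.72 to 1.45, adjusted p = 0.0372, and 0.0450 with the replicate block). Leaving out any single array took its adjusted p to between 0.0845 and 0.196, while the difference stayed between 0.98 and 1.18. The call was also lost with quantile normalization (1.03, adjusted p = 0.0538), without both arrays numbered 2 (0.93, adjusted p = 0.132) and without moderation (1.09, adjusted p = 0.334).

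**Figure D4:**
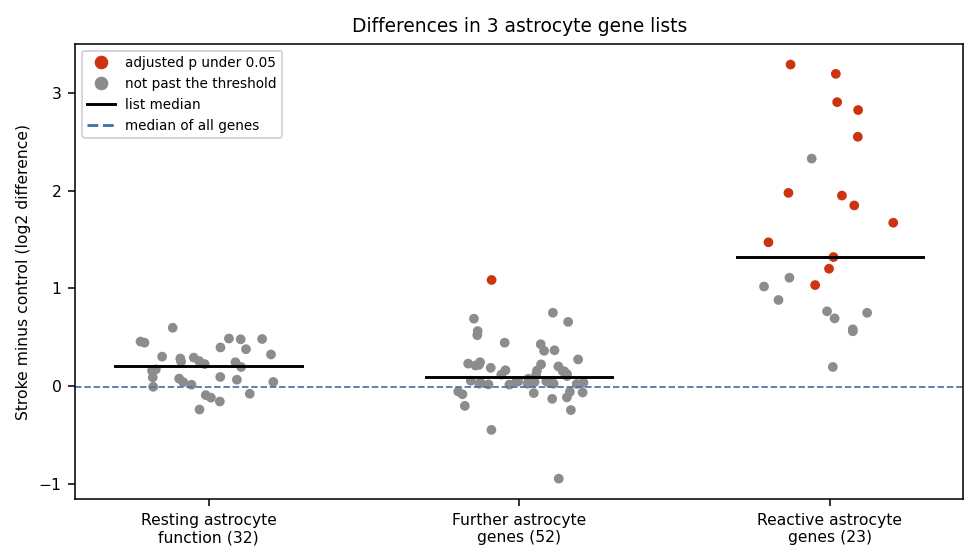
Stroke minus control (log2 difference) for 32 resting, 52 further and 23 reactive astrocyte genes, 1 point per gene, with red for an adjusted p under 0.05, a black line for the list median and a dashed line for the median of all genes (-0.01). The resting genes lie between -0.24 and 0.60 with none in red, while 13 of the reactive genes are in red around a median of 1.32. The lists were chosen with earlier results of these data known.

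Promoter sequence was read for a few motifs, among them that of STAT factors, since STAT3 is known to act in reactive astrocytes. The 250 bases before each annotated start were read from RefSeq (GRCm38.p6), 35 promoters of 29 of the 33 genes. Aqp4, Clu, Atp1b2 and Sox9 had no entry there, so the shares below leave out Aqp4 and Sox9, which separated the groups. The STAT motif TTCNNNGAA, which reads the same on both strands, was in 5 of the 35 (14.3%, against 7.02% of all 32851 promoters), those of Slc1a3, Acsbg1, Aldoc, Ntsr2 and Pla2g7. Stroke minus control was 0.60, 0.08, 0.20, 0.04 and 0.28 for these genes in that order, and of them only Slc1a3 separated the groups. Whether the motif goes with a difference was not tested. SOX motifs (AACAAAG or AACAATG, either strand) were in 1 (2.86%, against 8.12%), that of Slco1c1, and the full palindromic NFI motif was in 0 (0.0365% of all promoters). A pair with the STAT motif, in capitals and written in the direction of the gene, is shown because the genes differ in their arrays. Slc1a3 (minus strand, chr15:8710808-8711057) separated the groups, and Acsbg1 (minus strand, chr9:54661886-54662135) did not.
Slc1a3: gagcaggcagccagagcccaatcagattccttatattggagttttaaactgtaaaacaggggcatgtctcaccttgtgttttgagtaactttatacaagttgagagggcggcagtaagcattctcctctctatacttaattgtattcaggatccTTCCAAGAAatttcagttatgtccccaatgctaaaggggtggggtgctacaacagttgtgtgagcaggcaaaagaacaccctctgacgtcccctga
Acsbg1: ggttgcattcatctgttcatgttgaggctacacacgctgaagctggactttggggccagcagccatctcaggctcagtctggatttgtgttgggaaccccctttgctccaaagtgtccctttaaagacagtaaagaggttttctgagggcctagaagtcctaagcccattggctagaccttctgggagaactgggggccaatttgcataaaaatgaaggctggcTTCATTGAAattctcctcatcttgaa
The match begins 96 bases before the start in Slc1a3 and 26 bases before it in Acsbg1. A match is only a description of these letters, and binding was not measured.

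In the authors' deposited table all 33 genes are listed and 0 have a false discovery rate under 0.05, the lowest being 0.4625 for Slc1a3. The authors' deposited table gives an unadjusted p under 0.05 to 7 of them (21.2%) as higher and to 0 as lower, beside 3.37% and 2.09% of all 34472 clusters that it lists. Its false discovery rate is under 0.05 for 0.307% of those clusters as higher and 0.0029% as lower. Its fold for Slc1a3 is 1.6. Its averages for that gene, 9.59 in stroke and 8.91 in control, are not the means of the deposited signals (9.48 and 8.88). The signed fold was negative for Ndrg2 (-1.06), Mt3 (-1.01) and the Glul cluster (-1.01), whose differences here were 0.04, 0.09 and 0.0038. Why these values differ was not tested.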

How the data were processed

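Biotin-labelled, ribosome-bound mRNA (100 ng each, per the labels) was hybridised to 6 arrays. The deposited value table holds the authors' log2 signals for 41345 clusters. Transcriptome Analysis Console 3.0 was used, per the design text, with annotation na36 on mm10, per the file headers; how signals were normalized is not stated there. A table deposited by the authors compares the groups, with log2 averages, a signed fold change used as a score, p-values and false discovery rates per the file headers.

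Symbols came from that table. Clusters with 1 symbol (29971) gave 29458 genes, the cluster of highest mean signal being kept where a symbol had several. The groups were compared with lmFit and eBayes of limma 3.58.1 (R 4.3.3), with no covariate, Benjamini-Hochberg adjustment and a threshold of 0.05. Shared clusters were tested among all 31873 clusters with a symbol. Detection calls were not used, no depth applies, and the number of arrays limits precision. Each p-value sets the group difference of a gene against the spread between arrays, moderated by eBayes over all genes. The spread between animals is not known, since the mice in each array are not stated. The procedure was tested on simulated data.

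Deviations from the group means correlated between same-numbered arrays at r = 0.299, 0.576 and 0.390 across genes, and unlike numbers at r from -0.46 to 0.237. The labels do not state a pairing. Since all 3 same-numbered values exceeded 0.1, blocked values are given where they change a count or a call. Unlike numbers exceeded 0.1 too, control 3 with stroke 1 (0.237) and control 1 with stroke 3 (0.129), so this rule does not single out same-numbered arrays. Centring each group on its own mean also ties these correlations to one another. Whether arrays of the same number were paired was not tested. The genes, lists and tests were chosen with earlier results of these data known. The genes named are all 33 astrocyte genes, the called genes with the largest change of both context lists (up to 4 each), the Gfap cluster, Itgam, Rpl10a and P2ry12. Fcrls, Cd44, S100a8, S100a9, Hes5 and Ednrb were added after their values were seen. Means of endothelial and mural, monocyte, neutrophil and ependymal markers lay between 6.67 and 6.97, 4.82 and 5.00, 4.36 and 4.64, and 5.98 and 6.13 in the controls. In stroke they lay between 6.66 and 7.18, 5.22 and 5.59, 4.81 and 4.92, and 5.97 and 6.10. Alternatives covered the block, scaling, filters, the test and left-out arrays.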

Additional observations from a re-analysis of the deposited data

How the results depend on the processing

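Under 16 other settings and in the authors' deposited table, the number of resting genes past the threshold stayed at 0 in both directions, and the lowest adjusted p of any of them was 0.102, with the replicate block. The median difference stayed above 0, between 0.15 and 0.25 when 1 array was left out. The direction held in all settings run for 22 of 33 genes and turned for the other 11, whose own differences were at most 0.09 in size. Slc4a4 became 0.042 and Slc39a12 0.012 with array weights, where Mt3 became -0.013. Without both arrays numbered 2 these were 0.029 for Slc4a4, 0.020 for Slc39a12 and -0.044 for Ntsr2. The Glul cluster became -0.0078 after quantile normalization. Leaving out 1 array gave -0.25 to 0.018 for Slc6a11, -0.21 to 0.24 for Slc4a4, -0.22 to 0.048 for Slc39a12, -0.012 to 0.24 for Acsbg1, -0.060 to 0.19 for Ntsr2, -0.12 to 0.21 for Ndrg2, -0.012 to 0.24 for Sox2, -0.097 to 0.29 for S100b, -0.16 to 0.15 for Fabp7, -0.31 to 0.44 for Mt3, -0.034 to 0.031 for the Glul cluster and -0.001 to 0.15 for Rpl10a. Of the 22 genes that 1 array moved by over 1.5 times, the 11 that kept their direction ran from -0.29 to -0.068 for Slc7a10, -0.35 to -0.12 for Slco1c1, 0.17 to 0.46 for Atp1b2, 0.026 to 0.27 for Gja1, 0.15 to 0.43 for Gjb6, 0.12 to 0.32 for Aldoc, 0.11 to 0.39 for Dio2, 0.16 to 0.43 for Pla2g7, 0.099 to 0.37 for Gpr37l1, 0.13 to 0.35 for Id3 and 0.23 to 0.48 for Clu. The Gfap cluster (1.64 to 1.97) lost its call in 3 of those 6 fits, with an adjusted p of up to 0.0952, and without moderation (1.82, adjusted p = 0.333). Reactive genes past the threshold numbered 7 to 10 with 1 array left out, 8 without both arrays numbered 2 and 0 without moderation. For calls lost with fewer arrays, fewer samples were in the fit; for the other settings the cause was not tested.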

Other observations

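Among the further astrocyte genes, Hes5 had the lowest difference and Ednrb the highest after Slc14a1, and both were picked after their values were seen. Hes5, a target of Notch signalling, was at 9.02, 8.71 and 8.50 in the controls and 8.16, 7.37 and 7.87 in stroke. All stroke arrays were lower, by -0.94 on the log2 scale (interval -1.47 to -0.42), without passing the threshold (limma, adjusted p = 0.269). Ednrb, an endothelin receptor, was at 7.82, 8.08 and 8.27 in the controls and 8.61, 8.95 and 8.86 in stroke. All stroke arrays were higher, by 0.75 (interval 0.37 to 1.14, adjusted p = 0.207).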
